A study of Homo sapiens with 4 samples.

Results

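Adhesion molecules on the surface of intestinal epithelial cells help to set which leukocytes can bind the epithelium. The genes described here are the ICAM family (ICAM1 to ICAM5) and 5 related adhesion genes (VCAM1, CD58, CEACAM1, ALCAM and CD44). They were chosen by symbol as ligands for leukocytes, with earlier results of these data known. Of these 10 genes, 9 had a row among the 37515 Ensembl genes counted and 7 had enough counts to be among the 14820 genes tested. ICAM4 was not analysed here. All 4 libraries were made from Caco-2, a single human colorectal carcinoma cell line used as a model of enterocytes, grown on transwells for 15 days. The titles of all 4 carry the label WT (wild type). The 2 unstimulated libraries came from cells that received medium only and were labelled 0 h. The 2 IFNγ libraries came from cells that received IFNγ at 60 ng/ml in the basal compartment and were labelled 3 h. Because no untreated cells were analysed at 3 h, the effect of IFNγ and that of the elapsed time cannot be told apart. The labels do not say whether the replicates are separate cultures, so p-values measure only the spread between these libraries, which may be technical.

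The intercellular adhesion molecules (ICAMs) are cell surface proteins of the immunoglobulin superfamily that are bound by β2 integrins on leukocytes. ICAM1 is the inducible member on epithelium and endothelium, and inflammatory cytokines are known to raise its transcription. IFNγ binds its receptor, activates the JAK kinases and induces IRF1, a transcription factor. GAS elements and IRF sites are DNA sequences known from genes of this response. Tumour necrosis factor and similar signals act on ICAM1 and VCAM1 through NFκB.

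The libraries held 7171455 to 10365346 counts, and the deeper library of each condition was replicate 1. Values are given as CPM (a library's counts rescaled to a common total) after TMM scaling, on which 1 count was worth 0.0973 to 0.140 CPM. Differences are log2 fold changes of IFNγ against unstimulated from edgeR's quasi-likelihood test, with the Benjamini-Hochberg adjustment taken over all 14820 genes. A gene passed at an adjusted p-value under 0.05. IRF1 counts were 198 and 144 before and 12348 and 7949 after stimulation, a log2 fold change of 5.86 (adjusted p = 7.43e-06), which served as the check of the treatment labels. The epithelial marker EPCAM was abundant, at 648 and 781 CPM unstimulated and 675 and 850 CPM after IFNγ. Not all enterocyte markers were: CDX1 had at most 5 counts and was not tested, and LGALS4 had 5.26 to 6.86 CPM. The leukocyte marker PTPRC had at most 2 counts, the endothelial marker CDH5 1 to 2 counts, and COL1A1, a collagen gene of fibroblasts, 89.4 to 179 CPM.

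Of the 7 tested adhesion genes, 2 rose after IFNγ and 0 fell, while 5 did not pass. Among all tested genes, 9.02% passed as higher and 11.0% as lower. With a log2 fold change above 1 as a further criterion, ICAM1 was the 1 adhesion gene called higher and 0 were called lower, against 2.88% and 4.40% of all tested genes. The 7 genes had a median of 0.28 on the log2 scale, or 0.14 without ICAM1, beside -0.01 over all tested genes. The plot of CPM by library shows each gene's 4 values.

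**Figure D1:**
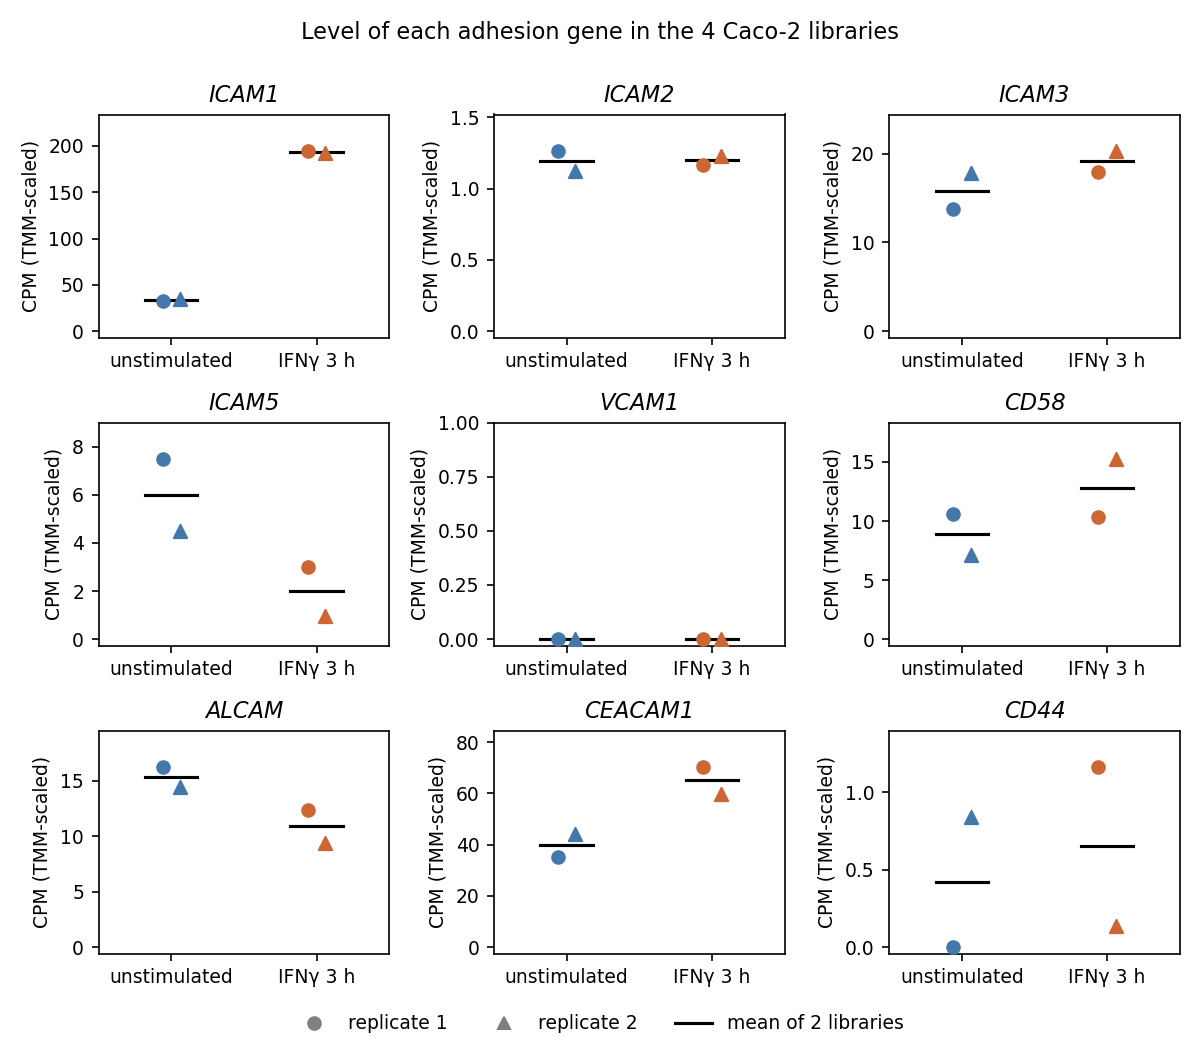
TMM-scaled CPM of the 9 adhesion genes with a row, in a panel each with its own linear axis from 0, for the unstimulated and the IFNγ libraries (circle, replicate 1; triangle, replicate 2; bar, mean of the 2 libraries). ICAM1 stands at 33.1 and 35.0 CPM unstimulated and at 195 and 192 CPM after IFNγ, CEACAM1 is higher in both IFNγ libraries, and VCAM1 is at 0 throughout.

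ICAM1 (ENSG00000090339, chromosome 19 of GRCh37, 10381769 to 10397291, plus strand) is the ligand of the integrins LFA-1 and Mac-1. Unstimulated cells gave 340 and 250 counts of it, and stimulated cells 2004 and 1407. On the CPM scale this was 33.1 and 35.0 against 195 and 192. The groups did not overlap, and the lower IFNγ library stood at 5.48 times the higher unstimulated one. The mean rose from 34.1 ± 1.36 (SD, n = 2) to 193 ± 2.08 CPM (SD, n = 2). This gave a log2 fold change of 2.51 (SE 0.118, 95% interval 2.23 to 2.78, edgeR adjusted p = 0.000114), or 5.68-fold. In bulk RNA, more cells with ICAM1 and more ICAM1 RNA per cell cannot be told apart. By log2 fold change ICAM1 ranked 60 among the 14820 tested genes. Its exons overlap those of LIMASI over 61 bases and of ICAM4-AS1 over 815 bases, both on the opposite strand. These antisense genes had at most 2 counts in any library.

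ICAM1 is the gene whose change was largest, so the 250 bases before its start are shown, from RefSeq on GRCh38.p14. CEACAM1, the other gene that rose, and VCAM1, which was not detected, are shown beside it. Each is printed 5′ to 3′ on the strand of its gene, and capitals mark the matches to the motifs searched. The letters searched on both strands were TTCNNNGAA (GAS), GAAANNGAA (IRF), GGNNNTTCC and GGGNNTTTC (NFκB) and TGANTCA (AP-1), in windows from 250 bases before to 50 bases after the start.
ICAM1 promoter, chr19:10270870-10271119, plus strand: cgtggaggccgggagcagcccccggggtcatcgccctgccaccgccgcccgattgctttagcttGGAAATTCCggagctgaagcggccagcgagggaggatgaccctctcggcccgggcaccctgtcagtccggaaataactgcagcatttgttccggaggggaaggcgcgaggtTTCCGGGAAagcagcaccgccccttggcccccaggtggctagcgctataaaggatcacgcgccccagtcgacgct
CEACAM1 promoter, chr19:42528482-42528731, minus strand: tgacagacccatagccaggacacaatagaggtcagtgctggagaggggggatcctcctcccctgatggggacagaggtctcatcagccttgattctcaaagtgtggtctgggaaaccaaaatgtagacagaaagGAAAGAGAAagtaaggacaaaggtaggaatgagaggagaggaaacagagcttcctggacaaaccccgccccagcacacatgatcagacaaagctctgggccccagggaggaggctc
VCAM1 promoter, chr1:100719492-100719741, plus strand: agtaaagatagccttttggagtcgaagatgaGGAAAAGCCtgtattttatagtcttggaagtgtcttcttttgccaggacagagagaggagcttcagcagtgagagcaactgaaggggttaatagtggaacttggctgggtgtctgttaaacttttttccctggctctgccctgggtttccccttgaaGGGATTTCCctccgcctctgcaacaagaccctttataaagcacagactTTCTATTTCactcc

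The ICAM1 sequence held 1 GAS match, TTCCGGGAA, from 75 to 67 bases before the start. It also held GGAAATTCC, which reads as an NFκB match on both strands, from 186 to 178 bases before the start. The CEACAM1 sequence held 1 IRF match, GAAAGAGAA, 116 to 108 bases before the start, and no other match. The VCAM1 sequence held 2 NFκB matches, GGAAAAGCC on the opposite strand and GGGATTTCC, and 1 IRF match on the opposite strand, read here as TTCTATTTC. Windows were found for 9 of the 10 genes, all but ICAM2. These 9 genes had 11 windows, since ICAM3 had several and held its match in 1 of them. The genes are counted below by any window, whereas the shares are per window. ICAM1 was the 1 gene of the 9 with a GAS match, 2 had an IRF match and 4 had a match to GGNNNTTCC, which ICAM3 and CD58 each held once on the opposite strand. Over all 35116 RefSeq windows, 7.66% held the GAS letters, 8.11% the IRF letters and 20.1% GGNNNTTCC. GGGNNTTTC and TGANTCA, in 4.78% and 7.71% of all windows, were in none of the 9 genes' windows. A match is a string of letters, and binding was not measured.

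The other 3 tested ICAM genes did not pass, although none was compared with ICAM1 by a test of the difference. ICAM2, an ICAM best known from endothelium and platelets, had 13 and 8 counts unstimulated and 12 and 9 after IFNγ. Its CPM values of 1.27 and 1.12 against 1.17 and 1.23 overlapped. Its log2 fold change was -0.01 (SE 0.433, edgeR adjusted p = 0.991), and its 95% interval of -1.02 to 1.01 leaves room for a change of up to about a log2 unit in either direction. The ICAM2 exons overlap those of PRR29 over 870 bases on the opposite strand.

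ICAM3, known mainly from resting leukocytes, had 13.7 and 17.8 CPM in the unstimulated libraries and 17.9 and 20.3 CPM after IFNγ. The lower IFNγ library was barely above the higher unstimulated one, at 1.01 times its value. The log2 fold change of 0.28 (SE 0.190, 95% interval -0.16 to 0.73) did not pass, with an adjusted p of 0.329 from edgeR. An unnamed gene on the opposite strand overlaps 2101 bases of the ICAM3 exons.

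ICAM5, or telencephalin, is known from neurons of the forebrain. Its counts were 77 and 32 unstimulated and 31 and 7 after IFNγ. The CPM values were 7.50 and 4.48 against 3.02 and 0.955, so both IFNγ libraries were below both unstimulated ones, while the libraries within each condition differed widely. ICAM5 had a log2 fold change at -1.54 (SE 0.502, 95% interval -2.72 to -0.36), with an unadjusted p of 0.0172 and an adjusted p of 0.0704 from edgeR, which missed the threshold. Without IFNγ replicate 1 the log2 fold change was -2.66 (adjusted p = 0.00813) and without unstimulated replicate 2 it was -1.83 (adjusted p = 0.0187). Without IFNγ replicate 2 or unstimulated replicate 1 ICAM5 did not pass. The ICAM5 exons overlap no other annotated gene.

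ICAM1, ICAM4 and ICAM5 lie side by side on chromosome 19, with ICAM3 farther along, beyond RAVER1. Neighbours were the 17 genes whose lower annotated coordinate lies within 100 kb of the ICAM1 start, whatever their strand. For genes on the minus strand, such as TYK2, this coordinate is the 3′ end. Of the 17 genes, ICAM1 included, 12 had a row, 6 were tested and 2 rose, against 9.02% of all tested genes. The second was RAVER1, which codes for an RNA-binding protein, at a log2 value of 0.45 (edgeR adjusted p = 0.0401). MRPL4, the gene of a mitochondrial ribosomal protein upstream of ICAM1, had 0.45 (adjusted p = 0.0601). TYK2, a JAK family kinase beyond ICAM3, had -0.17 (adjusted p = 0.531). The log2 fold change of 2.51 thus stood at ICAM1 among neighbours between -1.54 and 0.45.

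**Figure D2:**
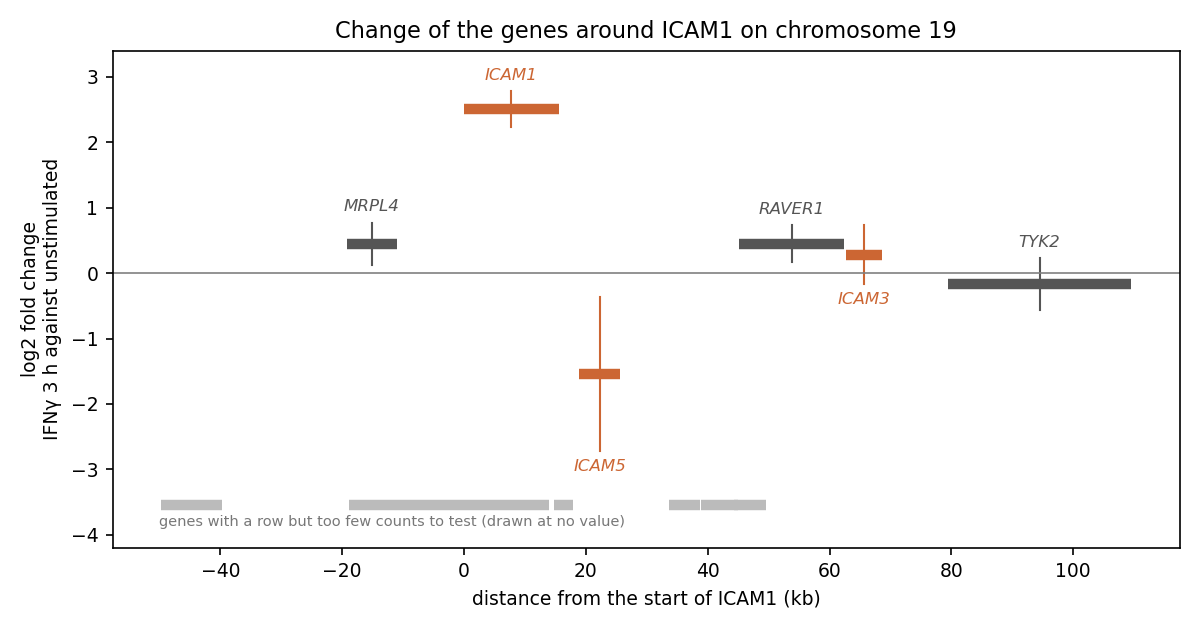
Log2 fold change of IFNγ against unstimulated for the 6 tested genes around ICAM1, plotted against the distance from the ICAM1 start in kb (thick bar, gene body; thin line, 95% interval; orange, ICAM genes; grey bars at the bottom, genes with a row that were not tested). ICAM1 is at 2.51, ICAM5 at -1.54 and the other 4 lie between -0.17 and 0.45.

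CEACAM1 (ENSG00000079385, chromosome 19 of GRCh37, 43011456 to 43065386, minus strand) binds other CEACAM molecules on epithelium and lymphocytes and carries an inhibitory motif in its long form. It had 363 and 316 counts unstimulated and 724 and 439 after IFNγ. On the CPM scale it stood at 35.3 and 44.3 against 70.4 and 59.9, and the lower IFNγ library was 1.35 times the higher unstimulated one. The mean rose from 39.8 ± 6.31 (SD, n = 2) to 65.2 ± 7.44 CPM (SD, n = 2). Its log2 fold change was 0.72 (SE 0.160, 95% interval 0.34 to 1.09, edgeR adjusted p = 0.0208), or 1.64-fold. The call was lost without either replicate 1 library: without unstimulated replicate 1 the log2 fold change was 0.56 (adjusted p = 0.0946), and without IFNγ replicate 1 it was 0.59 (adjusted p = 0.0508). Its exons overlap those of LIPE-AS1 over 185 bases on the opposite strand.

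CEACAM1 was the 1 of 6 tested members of its family that rose, and 0 fell, against 9.02% and 11.0% of all tested genes. Without unstimulated replicate 1 none passed (0 of 6), and without IFNγ replicate 1 a member other than CEACAM1 was the 1 that passed. CEACAM5, the carcinoembryonic antigen, had 12.4 and 12.0 CPM against 17.4 and 16.9 CPM, a log2 fold change of 0.49 (edgeR adjusted p = 0.0777). CEACAM6 had 45.5 and 47.8 CPM against 56.3 and 68.1 CPM, a log2 fold change of 0.41 (adjusted p = 0.0801). CEACAM1, CEACAM5 and CEACAM6 are similar in sequence over long stretches, so the division of reads between them is uncertain. The median of the 6 genes was 0.29.

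CD58 (LFA-3), the ligand of CD2 on T cells, had 10.6 and 7.15 CPM unstimulated and 10.3 and 15.3 CPM after IFNγ. The groups overlapped, with IFNγ replicate 1 below unstimulated replicate 1. The log2 fold change of 0.50 (SE 0.280, 95% interval -0.16 to 1.15) did not pass (edgeR adjusted p = 0.251). With each library left out in turn it ran from 0.18 to 0.82.

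ALCAM (CD166), the ligand of CD6, had 16.3 and 14.4 CPM in the unstimulated libraries and 12.4 and 9.41 CPM after IFNγ. Both IFNγ libraries were below both unstimulated ones. The log2 fold change was -0.49 (SE 0.204, 95% interval -0.97 to -0.01), with an adjusted p of 0.134 from edgeR. Over the 14518 genes whose exon sequence could be read, the log2 fold change rose with GC content (Spearman rho 0.431, a description over genes that share 4 libraries). The GC content of ALCAM was 39.6%. With the trend of GC content and length removed together, ALCAM had -0.12 and ICAM3 0.02, and neither passed. In that fit ICAM1 had 2.28, CEACAM1 0.72 and ICAM5 -1.77, which all passed. The part of GC content or length in the ALCAM value was not tested.

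VCAM1, the endothelial ligand of the integrin VLA-4, had 0 counts in all 4 libraries. A count of 0 allows up to 3 counts per library, which is 0.292 to 0.420 CPM, so VCAM1 was not detectable at this depth in either condition. CD44, the hyaluronan receptor, had 0 and 6 counts unstimulated and 12 and 1 after IFNγ, too few to be tested and without an order between the conditions. These limits cover counting error only.

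**Figure D3:**
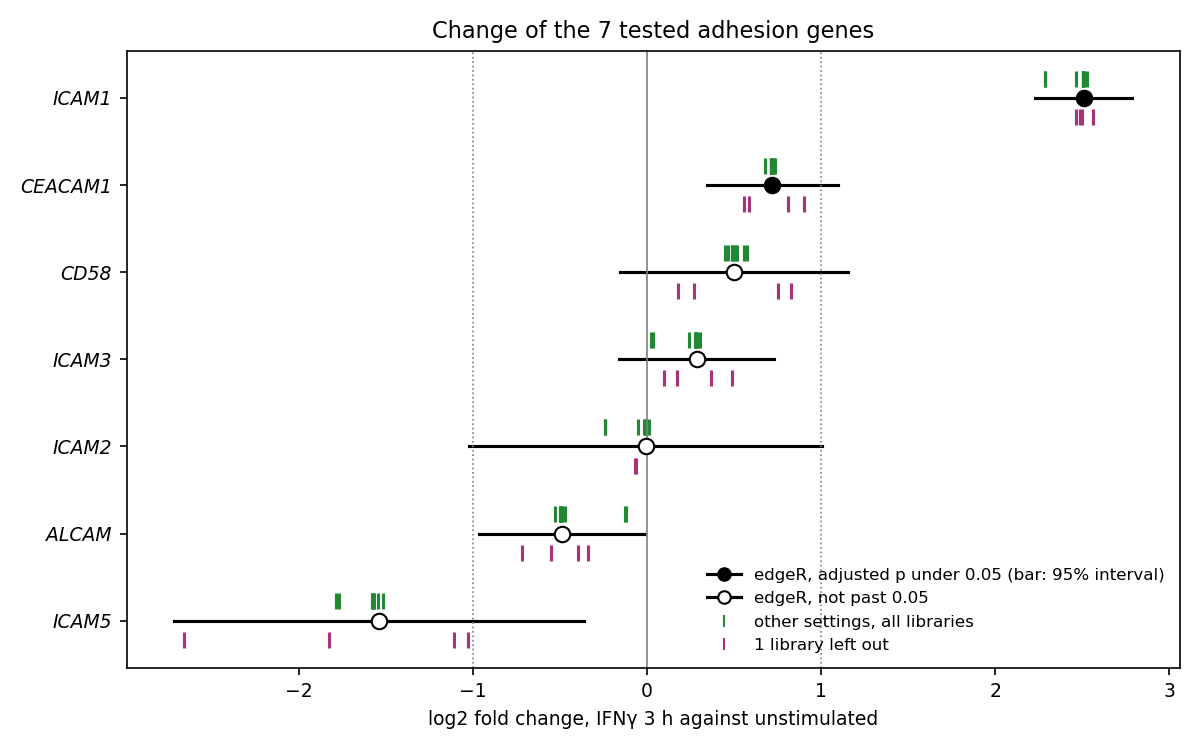
Log2 fold change of IFNγ against unstimulated for the 7 tested adhesion genes (circle, edgeR value, filled where the adjusted p is under 0.05; bar, 95% interval; green ticks, other settings with all libraries; purple ticks, 1 library left out). ICAM1 lies between 2.28 and 2.56 under every setting drawn, and CEACAM1 between 0.56 and 0.90.

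Levels of different genes were compared per kilobase of annotated exon, which may differ from the exons the counts were taken over. In unstimulated cells the order of mean CPM per kilobase was ICAM1 9.88, CEACAM1 7.20, ICAM3 5.65, CD58 4.98, ALCAM 2.14, ICAM5 1.52, ICAM2 0.368, CD44 0.0421 and VCAM1 0. ICAM1 was above CEACAM1 in both libraries, at 9.60 and 10.2 against 6.40 and 8.01. CEACAM1 and ICAM3 barely separated, since ICAM3 reached 6.38, and ICAM3 and CD58 overlapped. After IFNγ the order was ICAM1 56.1, CEACAM1 11.8, CD58 7.17, ICAM3 6.86, ALCAM 1.52, ICAM5 0.504, ICAM2 0.369, CD44 0.0652 and VCAM1 0. ICAM1 thus moved from a level above 68.2% of the tested genes with a length to one above 94.8%. CD58 and ICAM3 overlapped again, as did ICAM5 and ICAM2. 

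The binding partners of these ligands are known mainly from leukocytes, and counts were too low for a test in 6 of the 12 that had a row. Of the 6 tested, 0 rose and 0 fell by edgeR or DESeq2, against 9.02% and 11.0% of all tested genes, and 1 had an unadjusted p under 0.05. This was ITGB1, the β chain of VLA-4 and the most abundant of the 6, with 222 and 269 CPM unstimulated and 190 and 198 CPM after IFNγ (log2 fold change -0.34, edgeR adjusted p = 0.101). Without IFNγ replicate 1, 1 partner passed as lower. ITGB2, the β2 chain shared by the integrins that bind ICAM1, had 29.6 and 28.0 CPM unstimulated and 32.2 and 32.2 CPM after IFNγ (log2 fold change 0.16, edgeR adjusted p = 0.452). Its partner chain ITGAL had 33 and 10 counts against 22 and 1, and ITGAM 20 and 13 against 16 and 16. ITGA4, the α chain that binds VCAM1, had 2 counts in 1 library and 0 in the others. HAVCR2 (TIM-3), described as a partner of CEACAM1, had 1.36 to 2.92 CPM in the 4 libraries and a log2 fold change of -0.36 (adjusted p = 0.622). The median of the 6 partners was -0.19.

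Among 20 tested genes for other adhesion ligands, 2 rose and 1 fell, against 9.02% and 11.0% of all tested genes. NECTIN2, a junction protein and ligand of DNAM-1 on lymphocytes, had 95.3 and 104 CPM against 156 and 175 CPM, a log2 fold change of 0.73 (edgeR adjusted p = 0.0072). PVR, which shares that receptor, went the other way, from 206 and 192 CPM to 112 and 117 CPM, a log2 fold change of -0.80 (adjusted p = 0.00432). F11R (JAM-A), a tight junction protein bound by LFA-1, had 183 and 210 CPM against 258 and 264 CPM, a difference of 0.41 on the log2 scale (adjusted p = 0.048). The median of the 20 genes was 0.24. In each of the fits without unstimulated replicate 1, IFNγ replicate 1 or IFNγ replicate 2, 1 gene passed as higher.

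Of 14 tested genes that tie ICAM1, CD44 and similar proteins to the cortical cytoskeleton or hold them in tetraspanin domains, 3 rose and 2 fell, against 9.02% and 11.0% of all tested genes. EZR, which codes for ezrin and binds the tail of ICAM1, had 362 and 396 CPM against 543 and 611 CPM, a log2 fold change of 0.61 (edgeR adjusted p = 0.0122). ACTN4, an α-actinin, had 0.49 (adjusted p = 0.0211) and NHERF1, a scaffold for ezrin, 0.41 (adjusted p = 0.041). The 2 that fell were EPB41, of the protein 4.1 family, at -0.75 (adjusted p = 0.00836) and ANK3, an ankyrin, at -0.55 (adjusted p = 0.0137). The median was 0.27. With the trend of GC content and length removed, 2 passed as higher and 0 as lower, so both lower calls were lost. Without unstimulated replicate 1, 0 passed as higher and 1 as lower, and without IFNγ replicate 2, 1 as higher and 3 as lower.

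Of 10 tested genes for proteases that cut adhesion molecules from the surface, or for their inhibitors, 2 rose and 1 fell, against 9.02% and 11.0% of all tested genes. Both that rose code for metalloproteinase inhibitors. TIMP2 had 136 and 134 CPM against 220 and 231 CPM, a log2 fold change of 0.74 (edgeR adjusted p = 0.00481), and TIMP3 had 0.42 (adjusted p = 0.0484). The one that fell was ADAM10, a sheddase of CD44 and ALCAM among others, from 168 and 187 CPM to 127 and 124 CPM, a log2 fold change of -0.50 (adjusted p = 0.0228). ADAM17, the sheddase best known for ICAM1 and VCAM1, had -0.32 (adjusted p = 0.161). The median was 0.06. The ADAM10 call was lost with the trend of GC content and length removed and without unstimulated replicate 2, where 0 passed as lower, whereas 3 did with scaling by library size. There was 1 higher call under DESeq2, both other scalings and each fit with 1 library left out.

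CD44 itself was near 0, yet 9 of 15 genes around it were tested, for hyaluronan synthesis and breakdown, other ligands, and the splicing of CD44. Of these 2 rose and 3 fell, against 9.02% and 11.0% of all tested genes. SPP1, the CD44 ligand osteopontin, had 61 and 16 counts unstimulated and 4 and 4 after IFNγ. Its log2 fold change was -3.16 (edgeR adjusted p = 0.014). With at least 10 counts required in every library, SPP1 was not tested. In that fit, and under DESeq2, 2 genes of the list passed as lower. HMMR, a hyaluronan receptor also known as a gene of dividing cells, had 61.1 and 75.5 CPM against 17.2 and 8.46 CPM, a log2 fold change of -2.38 (adjusted p = 0.00303). The epithelial splicing regulators moved in opposite directions, with ESRP1 at -0.62 (adjusted p = 0.00964) and ESRP2 at 0.46 (adjusted p = 0.0316). HYAL2, a hyaluronidase, had 0.80 (adjusted p = 0.0147). The median was 0.05. Both higher calls were lost with the trend of GC content and length removed and without unstimulated replicate 1, and 1 gene passed as higher without IFNγ replicate 1 or without unstimulated replicate 2.

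Apart from ITGB1, given above, 11 other integrin chains from a list for epithelial cells were tested, including ITGAE, which is known mainly from lymphocytes. Of these 1 rose and 0 fell, close to the 9.02% of all tested genes that passed as higher. The chain that rose was ITGB8, part of a receptor that activates TGFβ, at 0.77 (edgeR adjusted p = 0.034). The median was 0.18. Under DESeq2, and without unstimulated replicate 1 or IFNγ replicate 1, 0 passed as higher.

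Of the genes for IFNγ and NFκB signalling, the known inputs to ICAM1 transcription, all 15 on the list were tested. Of these 6 rose and 2 fell, against 9.02% and 11.0% of all tested genes, and the median was 0.36. Without unstimulated replicate 2, 1 passed as lower. Besides IRF1, given above, RELB had a log2 fold change of 1.26 (edgeR adjusted p = 0.00721), STAT3 1.14 (adjusted p = 0.00152), the NFκB subunit RELA 0.78 (adjusted p = 0.00523) and the receptor chain IFNGR1 0.78 (adjusted p = 0.00938). TNFAIP3, an NFκB target and inhibitor, fell by 0.93 on the log2 scale (adjusted p = 0.00437) and the other receptor chain IFNGR2 by 0.51 (adjusted p = 0.0398). NFKBIA, the inhibitor that NFκB itself induces, had 25.5 and 27.5 CPM against 24.6 and 24.2 CPM (log2 fold change -0.12, adjusted p = 0.606). SOCS1, the feedback inhibitor of the receptor, had 1 and 4 counts against 14 and 12, a log2 fold change of 2.29 that did not pass (adjusted p = 0.0597).

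**Figure D4:**
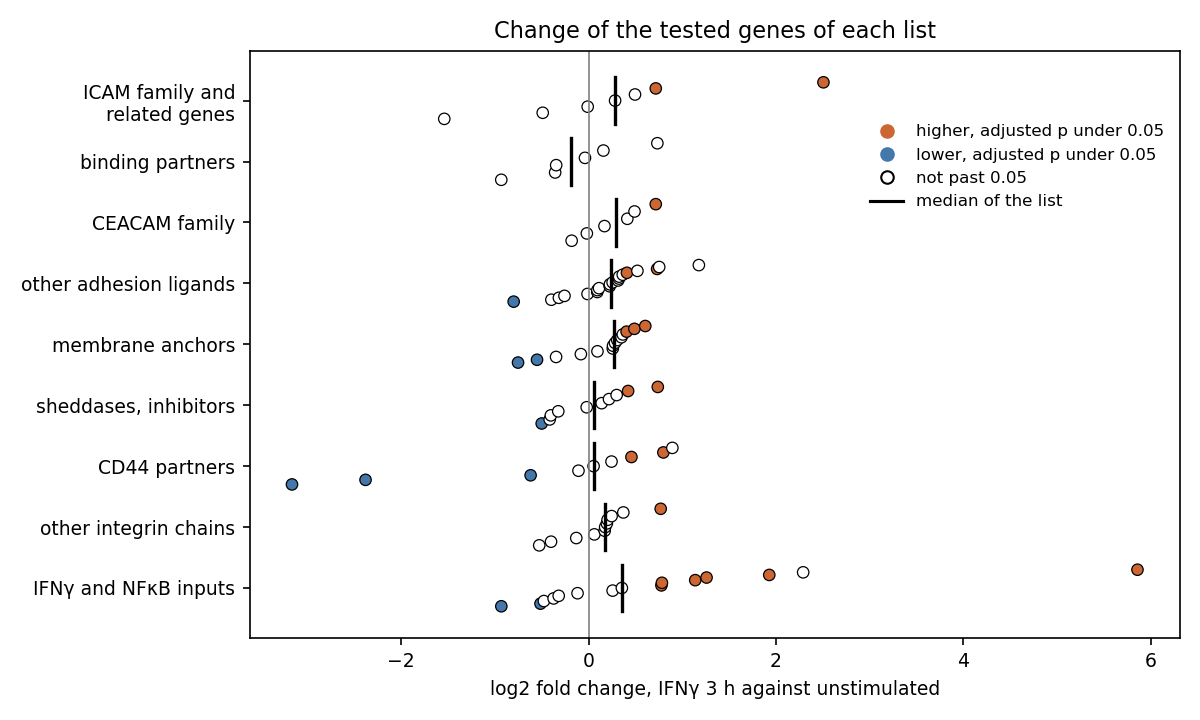
Log2 fold change of IFNγ against unstimulated for the tested genes of each list (points; orange, higher and blue, lower at an adjusted p under 0.05; open, not past 0.05), with the median of each list as a black line. ICAM1 at 2.51 is the highest point of its list, the binding partners have no filled point, and IRF1 at 5.86 and SPP1 at -3.16 are the extremes of the plot.

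Markers of other cell types gave no member that passed. Of 10 leukocyte markers 3 were tested, and their summed level was 486 and 555 CPM unstimulated and 463 and 475 CPM after IFNγ, nearly all from LCP1 and ITGB2, which Caco-2 cells held in every library. Of 8 endothelial markers 2 were tested, with a sum of 4.38 to 7.64 CPM and KDR, TEK and EMCN at 0. Of 8 fibroblast markers 5 were tested, with a sum of 115 to 211 CPM that came mostly from COL1A1, and THY1 at 0. Among 12 tested enterocyte markers 4 rose and 2 fell, against 9.02% and 11.0% of all tested genes. CDX2, an intestinal transcription factor, rose by 1.20 (edgeR adjusted p = 0.00117), the keratins KRT18 and KRT8 by 0.88 and 0.84 (adjusted p = 0.00873 and 0.00566) and ALPI, intestinal alkaline phosphatase, by 0.45 (adjusted p = 0.0314), on the log2 scale. SI, sucrase-isomaltase, had -1.13 (adjusted p = 0.0256) and KRT19 -0.50 (adjusted p = 0.0322). The exons of KRT8 and KRT18 overlap on opposite strands. In each of the fits without unstimulated replicate 1, unstimulated replicate 2 or IFNγ replicate 1, 1 passed as lower. Their part in the values of the adhesion genes was not tested.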

How the data were processed

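The values are raw read counts for each Ensembl gene in 4 Caco-2 libraries, deposited without pooling or normalization. RNA was isolated with the mirVana kit, and libraries were prepared with the TruSeq RNA kit from 1 ug of RNA. The submitters' processing notes name HISAT 0.5.1 and HTSeq 0.6.1p1. The genome build, the annotation and the handling of strand are not given in the sources used here, so counts of antisense partners and of near-identical genes are uncertain. Counts were tested with edgeR 4.0.16 (R 4.3.3), with TMM scaling, the default filter on low counts, group as the only factor, the quasi-likelihood test and Benjamini-Hochberg adjustment over 14820 genes. Standard errors were the log2 fold change over the square root of F, and intervals cover 95%. Coordinates, exon lengths and GC content came from GENCODE 44 lifted to GRCh37. Promoter windows came from RefSeq on GRCh38.p14, and coordinates of the builds are not interchangeable. The main edgeR fit and that with the replicate number as a block were tested on simulated counts. These held no GC trend and no effect of replicate number, and the other fits were not tested in this way.

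The genes, lists and tests were chosen with earlier results of these data known. Named genes were all 10 genes, up to 4 genes of each list in each direction with the largest change among those that passed, the tested neighbours of ICAM1, and fixed markers. 1 gene named by these criteria is left out of the text. CEACAM5, CEACAM6, ITGB1, ITGB2, ITGAL, ITGAM, ITGA4, HAVCR2, ADAM17, NFKBIA, LCP1, KDR, TEK, EMCN and THY1 were named after their values were seen, for their roles. So were ITGAE, for its role, and CDX1 and LGALS4, for their low values. ICAM4, CD2, PECAM1, SELP, CD24 and CEACAM20 were not analysed here. Alternatives were DESeq2 1.42.0, other scalings and filters, a replicate block, removal of a GC and length trend, a stricter threshold and each library left out. DESeq2 without its independent filtering was added after seeing the data.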

Additional observations from a re-analysis of the deposited data

How the results depend on the processing

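ICAM1 passed under every alternative tried, at 2.28 to 2.56. CEACAM1 passed at 0.05 except in the fits described beside it and, at an adjusted p of 0.0208, not at 0.01, and ranged from 0.56 to 0.90 with 1 library left out. ICAM5 passed with no filter on low counts (-1.52, adjusted p = 0.000221), with the GC and length trend removed (-1.77, adjusted p = 0.0445) and in 2 fits with 1 library left out (range -2.66 to -1.03). It also passed in both fits with the replicate block, given below with their values. It missed the threshold in the other edgeR fits that tested it, and DESeq2 gave it no adjusted p (0.0848 without independent filtering). ICAM2 changed sign with no filter on low counts, from -0.01 to 0.011, and both values lie well within its error. In that fit, and in that without IFNγ replicate 2, edgeR estimated no spread of the variance between genes, so these p-values cannot be set beside those of other fits. The cause of these differences was not tested.

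The replicate numbers of the titles are not said to mark a shared culture, and with 2 pairs the libraries share only a number (r = 0.415 between the deviations of same-numbered libraries from their group means). With the number as a block, 2596 genes were higher and 2892 lower at an adjusted p under 0.05, and 2 adhesion genes were lower: ICAM5 (-1.57, adjusted p = 0.00711) and ALCAM (-0.49, adjusted p = 0.0496). In the lists, the block gave 9 of 14 membrane anchors, 8 of 20 other adhesion ligands and 3 of 6 CEACAM genes that passed as higher (3, 2 and 1 without it). Over all 14820 tested genes, 2596 passed as higher with the block and 1337 without it, so calls rose across all genes too. With the block and the GC and length trend removed together, 2671 genes were higher and 1 adhesion gene was lower, ICAM5 (-1.79, adjusted p = 0.000787).

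Against 1337 higher and 1626 lower genes, the GC and length correction alone left 975 lower, 291 of them with the fold threshold (652 before), and 1 adhesion gene lower. With no filter 1 adhesion gene was lower. At an adjusted p under 0.01, 527 genes were higher and 615 lower, 304 and 382 with the fold threshold, and 1 adhesion gene was higher. With 1 library left out, 711 to 1146 genes were higher and 1057 to 1878 lower, 554 to 1112 of the latter with the fold threshold, and 1 to 2 adhesion genes were higher and 0 to 1 lower. Of 87 alternative values for the 7 genes, 77 counted as the same, with direction and call kept. Where DESeq2 gave no adjusted p, a value counted if it lay within the main fit's standard error. Of 420 counts for the lists 83 moved, either by more than 1.5 times or to or from 0. Scaling by DESeq2's size factors or by library size alone changed no call of an adhesion gene. ICAM2 and ICAM5 had no value with at least 10 counts required in every library, and ICAM2 had none in 2 of the fits without a library.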
